A study of Rattus norvegicus with 6 samples.

Results

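Red pulp macrophages of the spleen take up old red blood cells, break down the heme of their hemoglobin and return the iron to the blood. Heme oxygenase opens the heme ring, biliverdin reductases convert the green product to bilirubin, ferritin holds the iron that is kept, and ferroportin lets the rest out of the cell. Hepcidin, a peptide hormone made mainly by the liver, closes this exit by binding ferroportin and having it degraded, and Spi-C is the transcription factor that mice need to form these macrophages.

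The 10 genes described here were chosen by name for their part in this work, with earlier results of these arrays known. They are Hmox1, Blvrb, Fth1, Slc40a1, Slc11a1, Cd163, Cd5l, Spic, Vcam1 and Hamp, and all 10 were measured, among 18166 genes on the arrays. Messenger RNA of whole spleen was measured in male Sprague-Dawley rats, 3 of them with a partial ligation of the portal vein (PPVL), a calibrated stenosis that raises portal pressure without liver cirrhosis, and 3 sham-operated. Spleens were taken 10 days after surgery, and each rat had an Affymetrix Rat Gene 2.0 ST array of its own. Values are log2 levels after Robust Multiarray Average (RMA) normalization, so a difference of 1 is a 2-fold difference. Each gene was read from its transcript cluster, the probe set for a gene locus, with the highest mean over the 6 arrays. Levels of different genes depend on their probes and are not compared with each other.

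The arrays carried the markers of spleen. The B cell gene Cr2 lay between 11.47 and 11.92 and the macrophage complement gene C1qa between 11.60 and 11.83 in all 6 rats. In 2 rats transcripts of a neighbouring organ stood out. Of 15 exocrine pancreas genes, 14 were highest in PPVL rat 1. The other, Try10, was highest in PPVL rat 2. It was the only 1 of the 15 past an unadjusted p under 0.05 in limma (difference 0.51, standard error 0.12, adjusted p = 0.973). Try10 is also up-regulated in the study's list. All 9 hepatocyte genes were highest in sham rat 2, where albumin (Alb) was at 10.28 against 6.37 to 7.85 in the other rats. Erythroid genes also varied between rats of the same group. All 14 were lowest in PPVL rat 1. Each of the 10 genes also stayed short of the threshold without PPVL rat 1 and without sham rat 2. The arrays were normalized to each other, so the values are relative to the RNA on each array and do not give amounts per organ. The array medians still ranged from 6.22 to 6.33. In whole tissue, a change in the number of macrophages and a change in the RNA of each macrophage cannot be told apart.

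None of the 10 genes passed the test between the spleens of PPVL and sham rats. The criterion was that of the study, an unadjusted p under 0.05. By it, limma's empirical Bayes test called 0 of 10 higher and 0 lower, where it called 4.23% of all genes (2.69% higher and 1.55% lower). The study ran its test in Transcriptome Analysis Console, and its calls differ from these for some of the genes named below. The smallest unadjusted p among the 10 was 0.252 (Slc40a1), and their smallest p after Benjamini-Hochberg adjustment over all clusters was 0.973. Of all clusters on the arrays, 0 passed after adjustment, with a smallest adjusted p of 0.753. In 0 of the 10 genes did the PPVL rats lie apart from the sham rats, as they did in 11.3% of all genes (6.64% with PPVL higher and 4.7% with PPVL lower). The exact permutation test over the 6 rats, two-sided, gave p-values from 0.3 to 1, and 0.1 is the smallest that 3 rats against 3 allow. The log2 difference between PPVL and sham was positive for 7 genes and negative for 3, with a median of 0.06 beside a median of 0.00 over all genes. The largest mean difference in either direction, that of Slc40a1, was 1.10-fold.

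**Figure D1:**
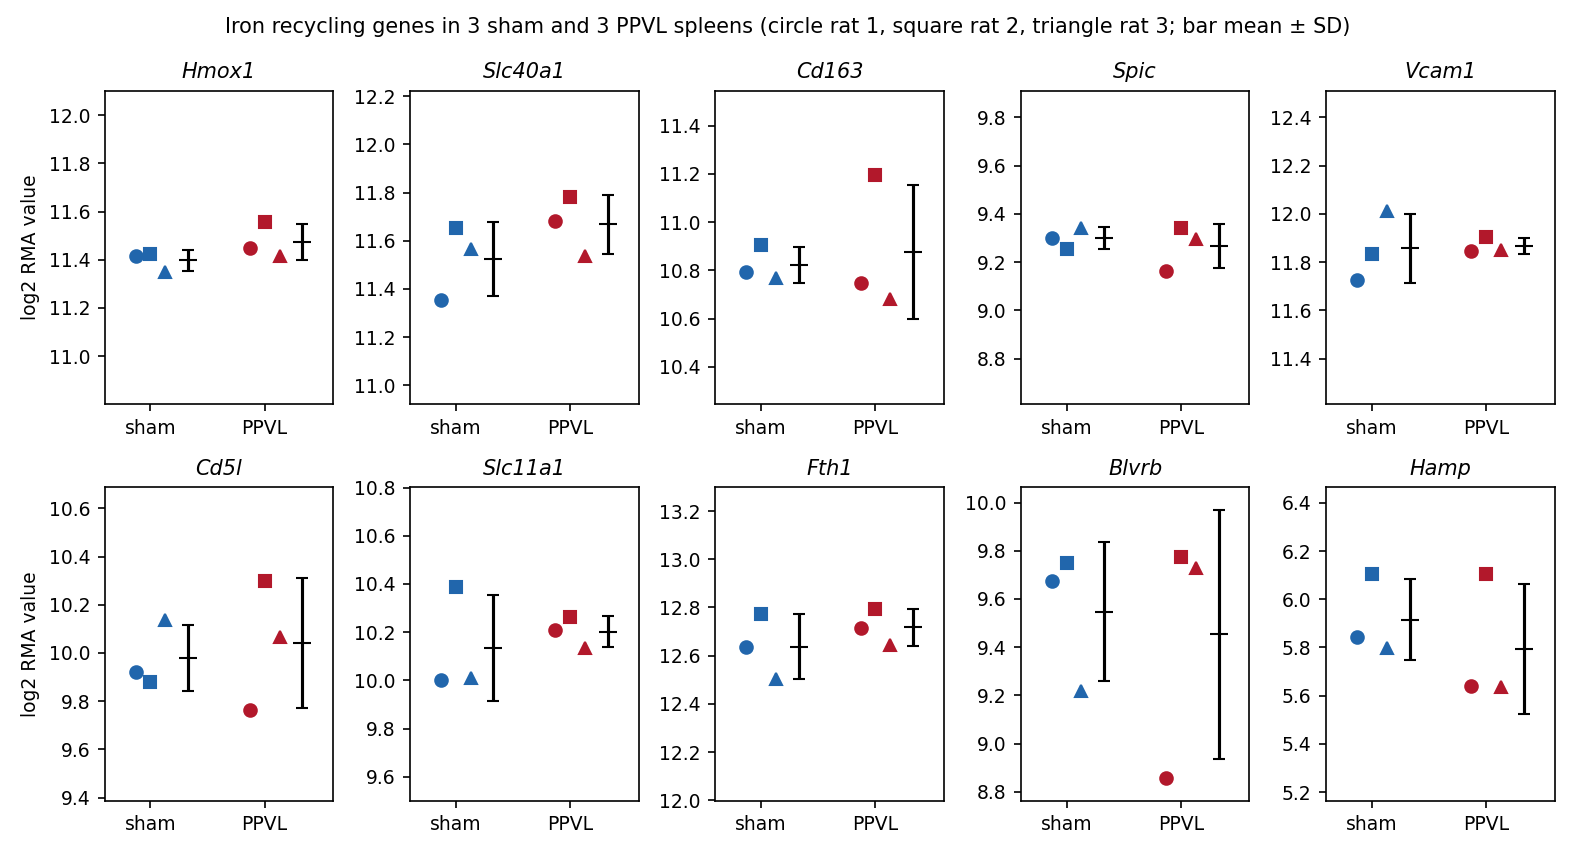
Log2 RMA values of the 10 iron recycling genes in each rat, with sham spleens in blue and PPVL spleens in red, and the mean ± SD of each group (n = 3) as a bar beside the points. Every panel spans the same number of log2 units. The groups overlap in all 10 panels, and Blvrb has the widest spread, from 8.86 in PPVL rat 1 to 9.78 in PPVL rat 2.

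Hmox1 encodes heme oxygenase 1, the heme-inducible enzyme that starts heme breakdown. Its log2 level was 11.45, 11.56 and 11.42 in PPVL rats 1, 2 and 3 and 11.42, 11.43 and 11.35 in sham rats 1, 2 and 3. All 6 rats lay within 0.21 log2 units, and PPVL rat 2 was the highest. The group means were 11.47 ± 0.07 (SD, n = 3) and 11.40 ± 0.04 (SD, n = 3), and the difference of 0.08 (standard error 0.08, adjusted p = 0.973 from limma) has a 95% interval from a 0.919-fold to a 1.21-fold level in PPVL spleens.

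Blvrb encodes biliverdin reductase B, which also serves as a flavin reductase of red blood cells. Its log2 level was 8.86, 9.78 and 9.73 in PPVL rats 1, 2 and 3 and 9.68, 9.75 and 9.22 in sham rats 1, 2 and 3. PPVL rat 1 and sham rat 3 were low and the other 4 rats lay close together, so the spread within each group exceeded the difference between their means. That difference was -0.09 (standard error 0.27, adjusted p = 0.989 from limma), and its 95% interval runs from a 0.598-fold to a 1.47-fold level, the widest of the 10 genes. It was 0.20 (standard error 0.18) without PPVL rat 1 and 0.01 without sham rat 2.

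The promoters of Blvrb and Hamp are shown because Blvrb varied most between rats and Hamp alone held matches to the motifs searched. They come from RefSeq on the GRCr8 assembly, in which 7 of the 10 genes had a promoter window of 250 bases before to 50 after the start site. Hmox1, Slc11a1 and Fth1 had none. Capitals mark matches, on either strand, to motifs of factors that act in iron recycling or in the hepcidin response. These were the antioxidant response element bound by Nrf2 and Bach1 (TGACNNNGC), the AP-1 and Maf core (TGAGTCA), the PU box bound by PU.1 and Spi-C (GAGGAAGT) and the STAT motif (TTCNNNGAA). The stretch of Blvrb is chr1:91866138-91866257 on the plus strand and ends at the base before the start site. The stretch of Hamp is chr1:95300302-95300421 on the minus strand and covers 150 to 31 bases upstream.
Blvrb: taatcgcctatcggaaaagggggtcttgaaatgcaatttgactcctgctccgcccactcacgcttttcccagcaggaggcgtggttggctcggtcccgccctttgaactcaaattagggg
Hamp: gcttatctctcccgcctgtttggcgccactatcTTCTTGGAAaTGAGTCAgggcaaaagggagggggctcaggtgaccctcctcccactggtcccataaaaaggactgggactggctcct
The other 6 windows held no match. The STAT match of Hamp begins 117 bases and the AP-1 match 107 bases upstream of the start site, with 1 base between them. Of all 33469 promoter windows, 8.87% held the STAT motif, 4.63% the AP-1 core, 12.1% the antioxidant response element and 2.42% the PU box. A match describes the letters of the window and is not evidence of binding.

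Fth1 encodes the heavy chain of ferritin, which oxidises iron for storage. Fth1 read 12.72, 12.79 and 12.64 in PPVL rats 1, 2 and 3 and 12.64, 12.77 and 12.50 in sham rats 1, 2 and 3. The rats of both groups were interleaved, with sham rat 3 lowest. The difference was 0.08 (standard error 0.10), with a 95% interval from a 0.895-fold to a 1.25-fold level. Fth1 was the only 1 of the 10 with a second cluster, which gave a difference of 0.00 (standard error 0.13).

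Slc40a1 encodes ferroportin, the only known exporter of iron from mammalian cells. Slc40a1 read 11.68, 11.78 and 11.54 in PPVL rats 1, 2 and 3 and 11.36, 11.65 and 11.57 in sham rats 1, 2 and 3. Sham rat 1 was the lowest, and PPVL rat 3 lay below both other sham rats. The difference of 0.14 (standard error 0.11) has a 95% interval from a 0.915-fold to a 1.33-fold level, so a halving or doubling of ferroportin mRNA lies outside it.

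Slc11a1 encodes Nramp1, a metal transporter of the phagosome membrane in macrophages and neutrophils. Its log2 level was 10.21, 10.26 and 10.14 in PPVL rats 1, 2 and 3 and 10.001, 10.39 and 10.01 in sham rats 1, 2 and 3. Sham rat 2 had the highest value and both other sham rats the lowest, so the PPVL rats lay inside the range of the sham rats. The difference was 0.07 (standard error 0.13). Without sham rat 2 it was 0.20 (standard error 0.10) and did not pass the threshold. Of 10 neutrophil markers, 9 were highest in PPVL rat 2 and 0 of 10 were called in limma. Their difference was positive for 7 of 10, with a median of 0.225. Without PPVL rat 1, 3 of 10 were higher, and without PPVL rat 2, 2 of 10 were lower. Those settings called 463 and 919 of all 18166 genes in either direction. Ngp, 1 of these markers, is up-regulated in the study's list and had 1.03 here (standard error 0.46, unadjusted p = 0.0628 in limma). The summed level of the 10 markers was 11.02 to 12.28 in PPVL and 10.996 to 11.54 in sham spleens. The part of neutrophil RNA in the level of Slc11a1 was not tested.

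Cd163 encodes the scavenger receptor for hemoglobin bound to haptoglobin. Cd163 read 10.75, 11.20 and 10.68 in PPVL rats 1, 2 and 3 and 10.79, 10.91 and 10.77 in sham rats 1, 2 and 3. PPVL rat 2 was above every other rat, and both other PPVL rats were below every sham rat. The difference was 0.05 (standard error 0.15), and -0.11 (standard error 0.10) without PPVL rat 2. Cd5l encodes a secreted scavenger protein of tissue macrophages that inhibits their apoptosis. Its log2 level was 9.76, 10.30 and 10.07 in PPVL rats 1, 2 and 3 and 9.92, 9.88 and 10.14 in sham rats 1, 2 and 3. The PPVL rats held both the highest and the lowest value. The difference was 0.06 (standard error 0.15), and -0.06 (standard error 0.14) without PPVL rat 2.

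Spic encodes the transcription factor Spi-C, which is induced by heme. Spic read 9.16, 9.34 and 9.30 in PPVL rats 1, 2 and 3 and 9.30, 9.25 and 9.34 in sham rats 1, 2 and 3. This was the narrowest range of the 10 genes, 0.18 log2 units, with PPVL rat 1 lowest. The difference was -0.03 (standard error 0.09), with a 95% interval from a 0.847-fold to a 1.13-fold level. Vcam1, an adhesion molecule that red pulp macrophages carry in mice and that endothelium and stromal cells also express, was at 11.85, 11.91 and 11.85 in PPVL rats 1, 2 and 3 and at 11.73, 11.83 and 12.01 in sham rats 1, 2 and 3. Again the sham rats enclosed the PPVL rats. The difference was 0.01 (standard error 0.10), and 1 of 11 endothelial and stromal markers, the pericyte receptor Pdgfrb, was higher. Pdgfrb lost the call without PPVL rat 1 or sham rat 3.

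Hamp encodes hepcidin. Its log2 level was 5.64, 6.11 and 5.64 in PPVL rats 1, 2 and 3 and 5.84, 6.11 and 5.80 in sham rats 1, 2 and 3. The highest values were in 1 rat of each group, PPVL rat 2 and sham rat 2. The difference was -0.12 (standard error 0.16, adjusted p = 0.973 from limma), with a 95% interval from a 0.707-fold to a 1.19-fold level, and -0.28 (standard error 0.13) without PPVL rat 2. Sham rat 2 was the rat with high hepatocyte transcripts, while Alb was at 7.24 in PPVL rat 2. The summed hepatocyte level was 8.81 to 9.17 in PPVL and 8.63 to 10.76 in sham spleens, and 0 of 9 markers were called in limma. Apob, 1 of these markers, is down-regulated in the study's list and had -0.28 here (standard error 0.12, unadjusted p = 0.0555 in limma). The part of hepatocyte RNA in the level of Hamp was not tested.

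The intervals give the sizes of change that remain compatible with these arrays. For 9 of the 10 genes the 95% interval lay within 1.5-fold in both directions, and for Blvrb it did not. Hamp, among these 9, had a low mean level of 5.85, above that of 33.2% of genes and under every array median. Hmox1, Slc40a1, Vcam1 and Fth1 were near the top of the range, with means above those of 98.9% (Hmox1) to 99.8% (Fth1) of genes. How far the intervals of Hamp and of these genes bound a change at such levels was not tested. The standard errors of the 10 genes ranged from 0.08 to 0.27, with a median of 0.11 over all genes.

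**Figure D2:**
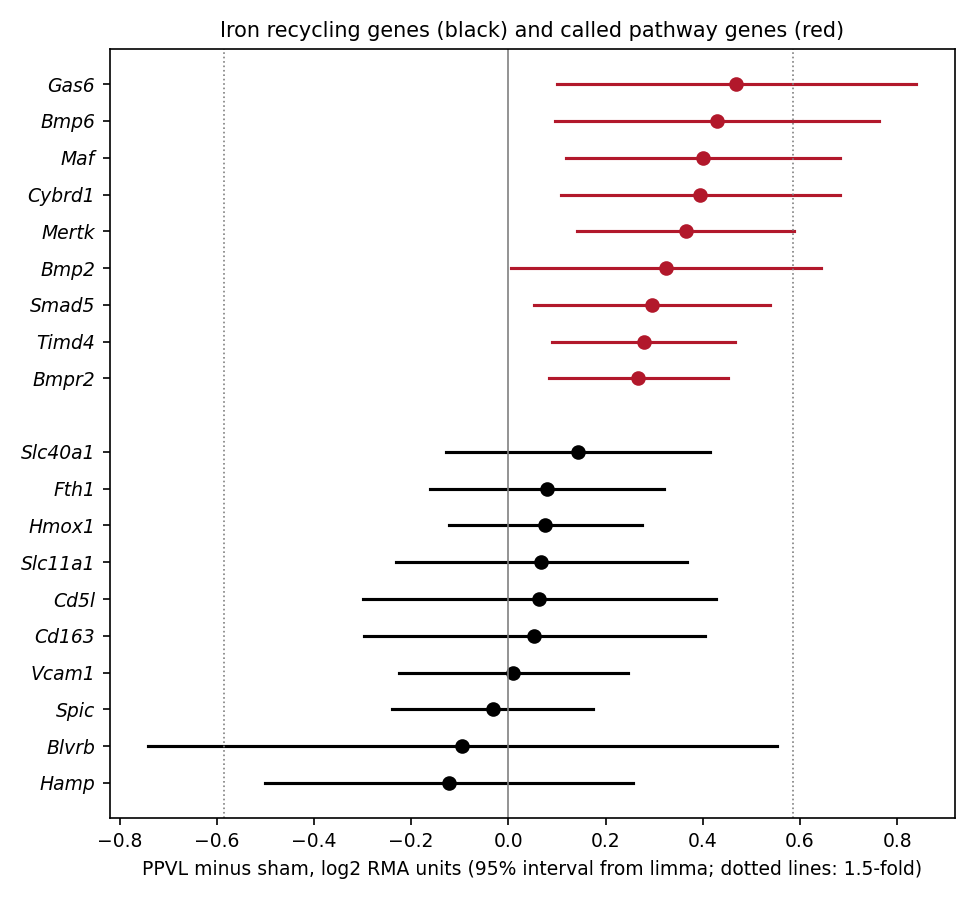
PPVL minus sham in log2 units, with the 95% interval from limma, for the 10 iron recycling genes (black) and for the 9 other pathway genes past an unadjusted p under 0.05 (red). Dotted lines mark 1.5-fold. Each black interval includes 0, and among these only that of Blvrb crosses a dotted line.

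The genes around these 10 were taken from 5 lists that cover red cell and heme uptake, heme breakdown, iron storage and transport, iron sensing with hepcidin control, and heme- and stress-responsive regulators. Of 74 measured genes other than the 10, limma called 9 higher in the spleens of PPVL rats and 0 lower, or 12.2% against 2.69% of all genes called higher. Their median log2 difference was 0.05. None of the 9 passed after adjustment, with an adjusted p of 0.973 for each in limma. In all 9 every PPVL rat lay above every sham rat, but genes picked by a small p tend to show this and it adds no support. The groups lay apart, in either direction, in 16 of the 74 genes, beside 11.3% of all genes. The lists were written with earlier results of these arrays known. Apart from Timd4 and Smad5, the 9 genes also appear in the study's own lists, so the count of 9 is not independent evidence. The counts of the single lists include those of the 10 genes that belong to them. The count of 9 was 6 without PPVL rat 1. Without PPVL rat 2 it was 8 higher and 5 lower, the lower genes being Hp, Ncoa4, Tfrc, Tfr2 and Gclm. Of all 18166 genes, 463 were called without PPVL rat 1 and 919 without PPVL rat 2, against 769 with all rats. The counts of pathway genes fell and rose along with these.

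Of 16 measured genes of red cell and heme uptake, 3 were higher, beside 2.69% of all genes, and 0 lower. These 3 act in the recognition of dying cells by the phosphatidylserine on their surface. Mertk, a receptor kinase that macrophages use for engulfment, was at 8.94, 8.96 and 8.90 in PPVL rats 1, 2 and 3 and at 8.42, 8.64 and 8.64 in sham rats 1, 2 and 3. The PPVL rats were all above the sham rats, by a mean of 0.37 (standard error 0.09). Gas6, the ligand that bridges phosphatidylserine to Mertk, was at 11.29, 11.01 and 11.17 in PPVL rats 1, 2 and 3 and at 10.73, 10.94 and 10.39 in sham rats 1, 2 and 3. The gap between the nearest rats, PPVL rat 2 and sham rat 2, was small beside the mean difference of 0.47 (standard error 0.16). Without PPVL rat 1 or PPVL rat 3 Gas6 did not pass the threshold. Timd4, a phosphatidylserine receptor of resident macrophages, was at 6.59, 6.52 and 6.51 in PPVL rats 1, 2 and 3 and at 6.24, 6.23 and 6.32 in sham rats 1, 2 and 3. It rose by 0.28 (standard error 0.08), and Timd4 and Mertk passed with each rat left out in turn. Axl, a receptor related to Mertk, had a difference of 0.16 (standard error 0.16). Among the receptors and carriers of heme and hemoglobin, Lrp1, a receptor for hemopexin, had 0.20 (standard error 0.17), and Slc48a1, which moves heme out of the phagolysosome, 0.14 (standard error 0.11). Stab1, a scavenger receptor, had 0.18 (standard error 0.09), and haptoglobin (Hp) -0.30 (standard error 0.17).

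**Figure D3:**
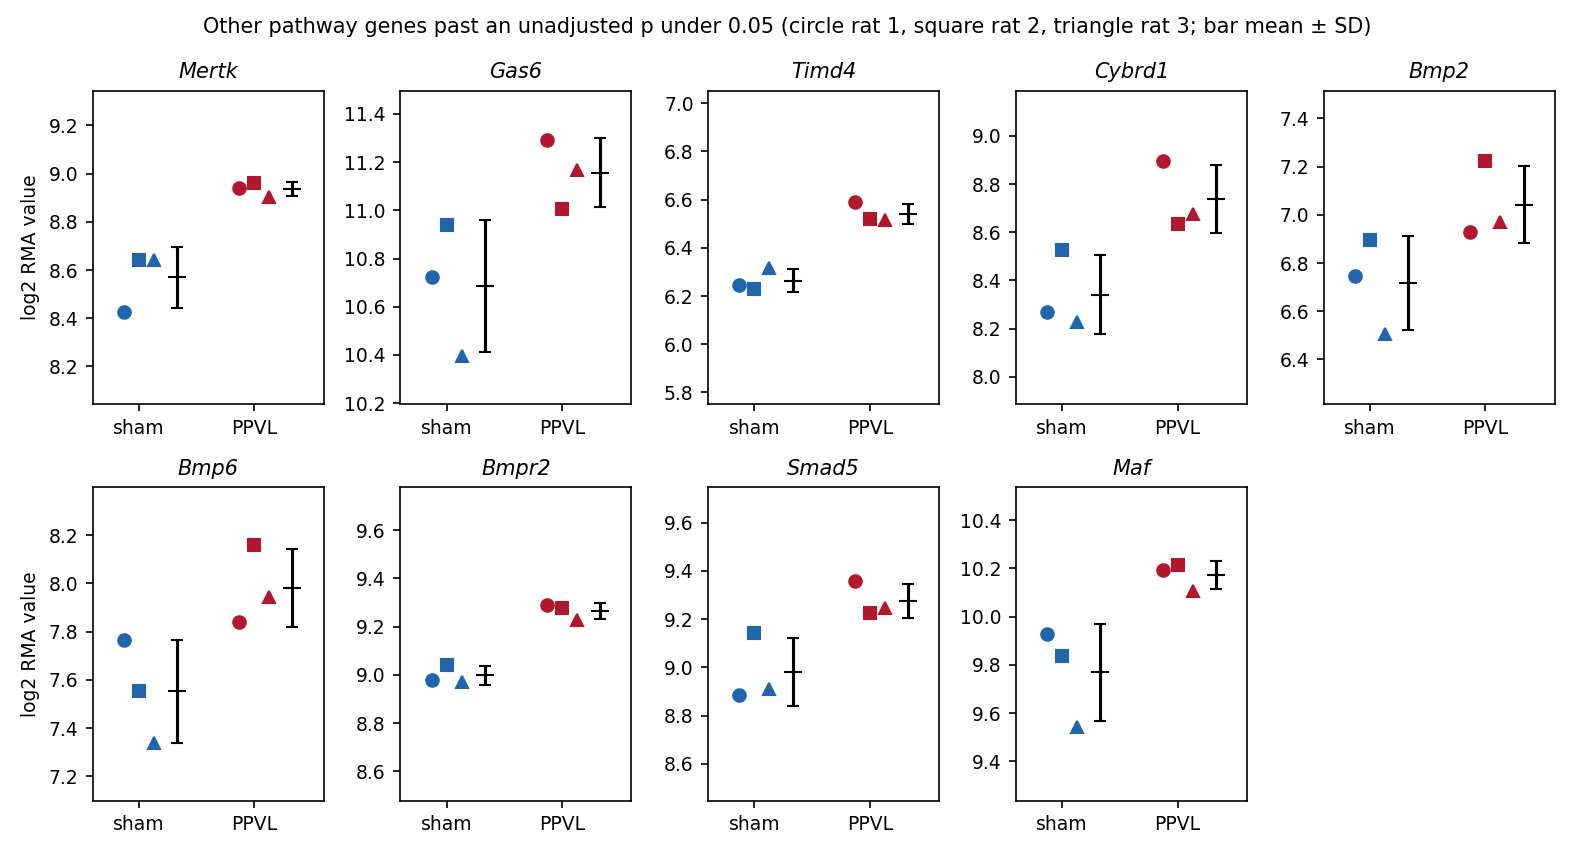
Log2 RMA values in each rat of the 9 pathway genes past an unadjusted p under 0.05, with sham spleens in blue, PPVL spleens in red and the mean ± SD of each group (n = 3) as a bar. Every PPVL rat lies above every sham rat in all 9 panels, and the gap is wide in Mertk and Timd4 and narrow in Bmp2 and Gas6.

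Of 5 measured genes of heme breakdown, Hmox1 and Blvrb among them, 0 were higher and 0 lower in limma. Hmox2, the constitutive heme oxygenase, had a difference of 0.08 (standard error 0.11), Blvra, the other biliverdin reductase, 0.05 (standard error 0.12), and Por, the reductase that feeds electrons to heme oxygenase, 0.15 (standard error 0.11).

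Of 16 measured genes of iron storage and transport, 1 was higher, beside 2.69% of all genes, and 0 lower. Cybrd1, a membrane ferric reductase, was at 8.90, 8.63 and 8.68 in PPVL rats 1, 2 and 3 and at 8.27, 8.53 and 8.23 in sham rats 1, 2 and 3. Its difference was 0.39 (standard error 0.12), and the call was lost without PPVL rat 1. Ftl1, the light chain of ferritin, had 0.13 (standard error 0.12), and ceruloplasmin (Cp), the ferroxidase that works with ferroportin, 0.21 (standard error 0.09), neither past the threshold.

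The widest spread in this list belonged to genes of iron import. Tfrc, the transferrin receptor that erythroid precursors carry in large amounts, was at 9.21, 10.96 and 10.11 in PPVL rats 1, 2 and 3 and at 11.03, 10.91 and 10.09 in sham rats 1, 2 and 3. PPVL rat 1 was low, PPVL rat 3 and sham rat 3 were intermediate and the other 3 rats were high, and the difference between the groups was -0.58 (standard error 0.45). Steap3, the ferrireductase of erythroid endosomes, was at 7.22, 8.40 and 7.47 in PPVL rats 1, 2 and 3 and at 8.38, 8.50 and 7.40 in sham rats 1, 2 and 3. The same 3 rats were low, and the difference was -0.40 (standard error 0.39).

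Erythroid markers were low in the same 3 rats. Rhag, a membrane protein of red blood cells, was at 8.10, 10.39 and 9.54 in PPVL rats 1, 2 and 3 and at 10.50, 10.58 and 9.52 in sham rats 1, 2 and 3. The hemoglobin gene Hbb-b1 was at 11.87, 13.05 and 12.59 in PPVL rats 1, 2 and 3 and at 13.07, 13.02 and 12.67 in sham rats 1, 2 and 3. The median of the 14 markers lay 1.27 log2 units below the mean of the 6 rats in PPVL rat 1, and their summed level was 13.57 to 15.03 in PPVL and 14.36 to 15.14 in sham spleens. The groups overlapped, and 0 of 14 markers were called in limma. Of their log2 differences 0 of 14 were positive, with a median of -0.63. Without PPVL rat 2, 10 of 14 were lower, in a setting that called 919 of 18166 genes in either direction. The markers varied together over the rats, so these calls are not separate results. Blvrb was lowest in the same rat as these markers and next lowest in sham rat 3, but in PPVL rat 3 it was at the level of the higher rats. The part of erythroid RNA in the levels of Blvrb, Tfrc and Steap3 was not tested.

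**Figure D4:**
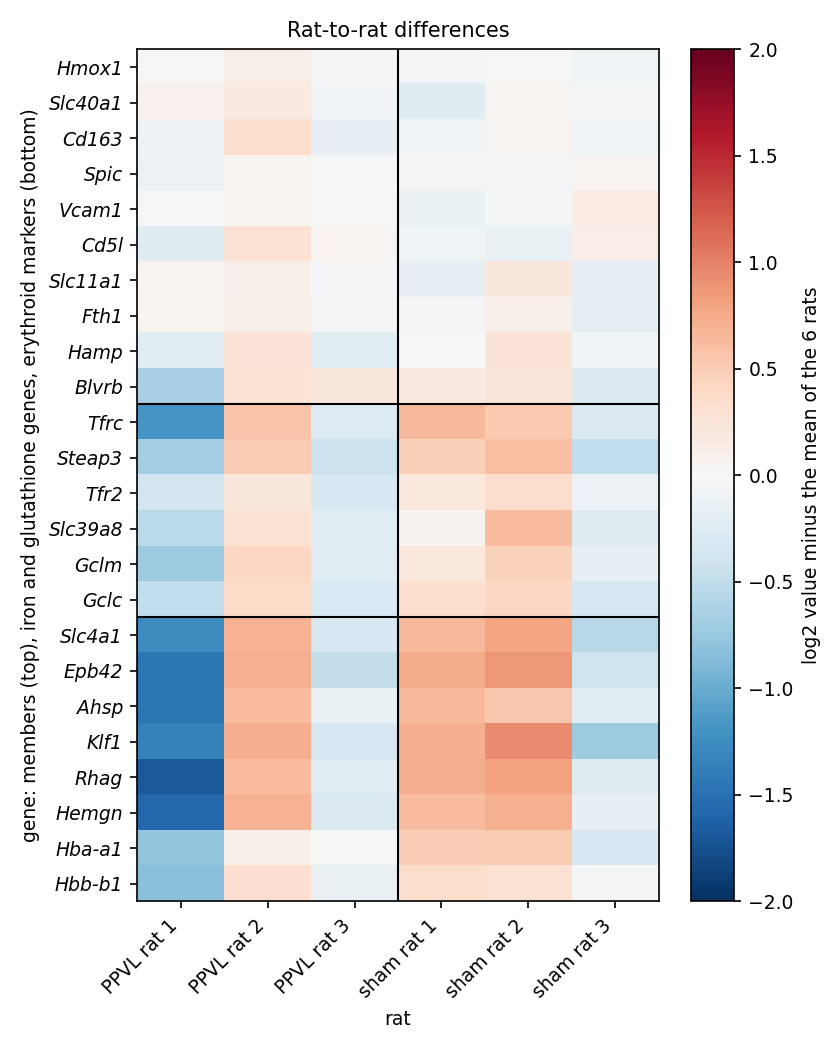
Log2 value minus the mean of the 6 rats for the 10 iron recycling genes (top), for iron import and glutathione genes (middle) and for erythroid markers (bottom), with one column per rat. PPVL rat 1 is the lowest rat for each erythroid marker shown and for Tfrc, Steap3 and Blvrb, while Hmox1 and Spic differ little between rats.

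Of 24 measured genes of iron sensing and hepcidin control, 4 were higher, beside 2.69% of all genes, and 0 lower. All 4 belong to the bone morphogenetic protein pathway, through which the liver senses iron and turns on hepcidin. Many other genes of this list belong to it too, so that all 4 do is in part set by the list. Bmp6, the ligand that rises with liver iron, was at 7.84, 8.16 and 7.94 in PPVL rats 1, 2 and 3 and at 7.76, 7.55 and 7.34 in sham rats 1, 2 and 3. PPVL rat 1 was only just above sham rat 1, and the difference of 0.43 (standard error 0.14) did not pass without PPVL rat 2 or sham rat 3. Bmpr2, a type II receptor, was at 9.29, 9.28 and 9.23 in PPVL rats 1, 2 and 3 and at 8.98, 9.04 and 8.97 in sham rats 1, 2 and 3. Both groups were tight and apart, and the difference of 0.27 (standard error 0.08) passed with each rat left out in turn. Bmp2, a related ligand, had 0.32 (standard error 0.13) and Smad5, which carries the signal to the nucleus, 0.30 (standard error 0.10). Of the settings with 1 rat left out, Bmp2 kept its call in those without PPVL rat 1 and without sham rat 2, and it also lost the call with array weights, median centring, quantile normalization and a variance trend. Smad5 lost the call when PPVL rat 1 was left out, and likewise for sham rat 1 and sham rat 3. The targets of this pathway Id1 (0.01, standard error 0.10), Smad6 (-0.02, standard error 0.11) and Smad7 (0.03, standard error 0.11) did not pass, like Hamp. Tfr2, the second transferrin receptor, had -0.30 (standard error 0.20). Without sham rat 1, 2 genes of this list were higher and 1, the hemochromatosis gene Hfe, was lower. Without sham rat 3, 2 were higher and 0 lower. Those settings called 615 and 827 of all 18166 genes in either direction.

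Of 21 measured regulators and their targets, 1 was higher, beside 2.69% of all genes, and 0 lower. Maf, a transcription factor of resident macrophages, was at 10.19, 10.21 and 10.10 in PPVL rats 1, 2 and 3 and at 9.93, 9.84 and 9.54 in sham rats 1, 2 and 3. The difference of 0.40 (standard error 0.12) passed with each rat left out in turn. Bach1, the repressor that heme removes from Hmox1 and Spic, had -0.13 (standard error 0.13), and Nfe2l2, which encodes Nrf2, 0.05 (standard error 0.09). Gclm and Gclc, the subunits of the enzyme that begins glutathione synthesis and targets of Nrf2, had -0.34 (standard error 0.30) and -0.27 (standard error 0.28). Both were lowest in PPVL rat 1.

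General macrophage markers moved little. Of 15 measured, 1 was higher, the lipopolysaccharide co-receptor Cd14 (0.27, standard error 0.11), and 0 lower, with a median difference of 0.10. Cd14 lost the call in 5 of the 6 settings that leave out 1 rat, all but that without sham rat 2, and also with array weights, median centring and the replicate block. Csf1r, the receptor for macrophage growth, had 0.10 (standard error 0.08), and Cd68, a lysosomal protein of macrophages, 0.12 (standard error 0.13). The difference was positive for 12 of the 15. The others were Itgad with -0.23 (standard error 0.15), Hpgd with -0.18 (standard error 0.22) and Mpeg1 with -0.06 (standard error 0.08), none past the threshold. Of these 15 genes, 8 were highest in PPVL rat 2, as were 6 of the 10 iron recycling genes. Among 4 markers of the marginal zone, where other macrophages line the white pulp, 2 were higher, beside 2.69% of all genes. Cd209d, a lectin, was at 5.69, 5.76 and 5.77 in PPVL rats 1, 2 and 3 and at 5.34, 5.16 and 5.29 in sham rats 1, 2 and 3. It rose by 0.48 (standard error 0.09), with an adjusted p of 0.782 in limma. Cd209d was among the low clusters, with a mean level above that of 27.7% of genes, and the filter on low clusters removed it. Siglec1, the sialoadhesin of metallophilic macrophages, had 0.27 (standard error 0.11) and lost the call when PPVL rat 1, PPVL rat 3 or either of sham rats 1 and 3 was left out, and with array weights, median centring and the replicate block. The other markers of the marginal zone did not pass. The scavenger receptor Marco had 0.16 (standard error 0.23) and Cd209a, a lectin related to Cd209d, had -0.21 (standard error 0.16). Cd14, Cd209d and Siglec1 also appear in the study's own lists. Whether these differences and those of the 10 genes are unlike was not tested.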

How the data were processed

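The authors hybridised spleen RNA of 6 rats to Affymetrix Rat Gene 2.0 ST arrays and deposited log2 values that were background corrected, normalized and summarised by RMA in Transcriptome Analysis Console. RMA scales arrays to each other, so changes of overall RNA amount are not seen, and array medians still ranged from 6.22 to 6.33. The table holds 36685 transcript clusters, 18511 with 1 gene symbol, and symbols were updated by Entrez identifier through RefSeq (18394 matched). Arrays have no depth; 3 per group limit the precision.

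All clusters were fitted with limma 3.58.1 in R 4.3.3 (lmFit, eBayes, no covariate), with Benjamini-Hochberg adjustment over all clusters. The script was tested on simulated data. The members and lists were chosen with earlier results of these data known. Named genes were the 10 members, the gene most alike to each member, and genes of the lists. In each pathway list they were those past an unadjusted p under 0.05 and up to 3 with the largest differences. In the cell type lists they were up to 3 past that threshold and some, not all, of those with the highest levels. Rhag, Axl, Stab1, Slc48a1, Ftl1, Cp, Id1, Smad6, Smad7, Bach1, Nfe2l2, Csf1r, Cd68, Marco, Cd209a and Cd8a were added by role after their values were seen. Itgad, Hpgd, Mpeg1, Ncoa4, Ngp, Apob, Cd3d, Cd3e and Cd3g were also added outside the rule, after their values were seen. Labels name separate rats, so p-values measure the spread between rats.

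Alternatives were each rat left out, the replicate number as a block, a variance trend, a robust prior, array weights, quantile normalization, median centring, clusters under the 40th percentile or without a symbol left out, and the mean of a gene's clusters.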

Additional observations from a re-analysis of the deposited data

How the results depend on the processing

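Over 15 alternatives, 0 of the 10 iron recycling genes passed an unadjusted p under 0.05 in limma in any, and the smallest was 0.0733 (Hamp without PPVL rat 2). Of 150 values, 142 kept their direction. The other 8 changed sign when 1 rat was left out, for Blvrb (range -0.26 to 0.20), Cd163 (-0.11 to 0.15), Cd5l (-0.064 to 0.20), Spic (-0.069 to 0.019) and Vcam1 (-0.055 to 0.088). The cause was not tested. With 1 rat left out, the median of the 10 genes ranged from -0.04 to 0.08, the count of other pathway genes called from 6 to 13, and the count of all genes called from 463 (without PPVL rat 1) to 919 (without PPVL rat 2), against 769. With only clusters of 1 symbol fitted, 1041 genes were called. Replicate numbers did not pair the rats (correlations of deviations -0.13, 0.14 and 0.12), and fitting those numbers as a block left 696 genes, 9 pathway genes and 0 of the 10 called. With 3 arrays per group, changes inside the 95% intervals, the widest of which was that of Blvrb, stay compatible with the values.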

Other observations

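For each of the 10 genes, the gene whose values over the 6 arrays were most alike was sought among 9074 genes with a mean above the median. With so many candidates and 6 arrays, a Pearson r near 1 is usual, and the values are a description. Blvra was most alike to Cd5l (r = 0.989), and the germinal centre gene Gcsam to Blvrb (r = 0.981). Cst3, the secreted protease inhibitor cystatin C, was most alike to Vcam1 (r = 0.991) and Tmem176a to Slc40a1 (r = 0.985). The others were P2ry2 for Hmox1, Smarcd2 for Cd163, Taf11 for Spic, Ccnt1 for Slc11a1, Themis2 for Fth1 and Tmem231 for Hamp, with r from 0.978 to 0.995.

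Outside the iron pathway, of 5 measured B cell markers and of 8 T cell markers, 0 were called in limma, with median log2 differences of 0.015 and -0.02. The T cell markers went both ways. Cd4, the co-receptor of helper T cells, had a difference of 0.28 (standard error 0.14), with overlapping groups. Cd3d, Cd3e and Cd3g had -0.02, -0.03 and -0.01. Which cells of the whole spleen held the Cd4 RNA was not tested. Cd8a, the co-receptor of cytotoxic T cells, had -0.25 (standard error 0.11), and every PPVL rat lay below every sham rat. The study lists Cd8a as down-regulated, and limma gave an unadjusted p of 0.0547 here. Of 6 monocyte markers, 0 were called, with a median of -0.02.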
